A study of Homo sapiens with 12 samples.

Results

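JMJD3, encoded by KDM6B, was overexpressed in HL-60 cells, a human promyelocytic leukaemia line able to mature into neutrophil-like or monocyte-like cells, and these cells were compared with HL-60 cells carrying a control vector. The comparison used 6 of the 12 RNA libraries of the study: 3 labelled as transduced with a JMJD3 expression vector and 3 as transduced with a control vector. Libraries were chosen by their titles and by the count columns of the same names. Both groups are the same cell line in the same culture medium, and the labels give no agent, sorting step, promoter, time after transduction or clone.

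JMJD3 is an enzyme that takes off the repressive histone mark H3K27me3, which Polycomb enzymes place mostly on CpG-rich promoters of inactive genes. In myeloid cells KDM6B is known as a gene induced by inflammatory signals. Late neutrophil genes, azurophil granule proteins, G1/S and G2/M genes and sterol synthesis are left aside here. Of 39 other gene programs tested, 37 are described, from secreted signals and their receptors to splicing and protein turnover.

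After recovery of the unscaled counts, the JMJD3 libraries held 28086888, 32080613 and 39031314 expected counts in order of replicate number and the vector libraries 26861304, 31472524 and 37941421. Levels are given as CPM (counts scaled to a common library size), scaled with the trimmed mean of M-values (TMM), and are not divided by gene length. Replicates 1 and 2 lay close together in both groups, with a chi-square per gene of 1.69 in JMJD3 cells and 1.96 in vector cells, where 1 is counting noise. Replicate 3 lay far from both, at 29.7 to 31.0 in JMJD3 cells and 37.0 to 39.2 in vector cells. Nothing in the labels ties replicates to cultures of their own, so p-values reflect only how far these libraries differ, and that spread may be technical. For this reason each program is also given within each replicate number.

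Promyelocyte markers were abundant in all 6 libraries, with a summed level of 8750 to 9660 CPM in JMJD3 and 16700 to 20900 CPM in vector libraries over 7 genes led by MPO. Markers of other cells summed to low levels. The 3 megakaryocyte markers reached 23.4 to 25.9 CPM in JMJD3 libraries, against 1.23 to 2.48 CPM in vector libraries, from ITGA2B, while PF4 and GP9 were at 0. The 4 erythroid markers summed to 1.76 to 2.08 CPM in JMJD3 and 0.135 to 0.197 CPM in vector libraries, from GATA1, with HBB at 0. The 4 fibroblast markers summed to 4.85 to 5.10 CPM in JMJD3 and 0.67 to 0.926 CPM in vector libraries, led by COL1A1, with COL1A2 at 0. T cell markers summed to 1.57 to 1.78 CPM in JMJD3 and 1.06 to 1.66 CPM in vector libraries. B cell markers summed to 10.5 to 12.4 CPM in JMJD3 and 10.6 to 13 CPM in vector libraries, with MS4A1 at 0, and epithelial markers to 0.137 to 0.289 CPM in JMJD3 and 0.316 to 1.09 CPM in vector libraries. The part of these markers in the results was not tested.

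The JMJD3 libraries also held reads of genes that were all but absent from the vector libraries. In all, 123 protein-coding genes had at most 2 counts over the vector libraries and 30 or more over the JMJD3 libraries, and 6 the other way round. The 123 genes had a median of 0.51 CPM in JMJD3 cells, and 114 of them lay under 2 CPM. For such genes a ratio of summed, scaled counts is given with its 95% counting interval, or, with no count in vector cells, a bound against a floor of 3 counts over the group. These intervals and floors cover counting error only. Whether these reads came from the transduced HL-60 cells was not tested, and 864 of the genes called higher in JMJD3 cells lay in the same range, under 2 CPM.

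The overexpressed gene, KDM6B (ENSG00000132510), lies at 7839904 to 7854796 on the plus strand of chromosome 17 (GRCh38) and codes for protein. It was at 98, 99.5 and 83.9 CPM in the JMJD3 libraries, against 35.2, 34.8 and 24.7 CPM in the vector libraries. The groups did not overlap, and replicate 3 was the lowest of each group. Its log2 fold change was 1.57 ± 0.148 (± SE here and below), and edgeR's quasi-likelihood test gave an adjusted p of 0.000129. Reads of the vector-borne copy and of the endogenous gene share a single row.

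**Figure D1:**
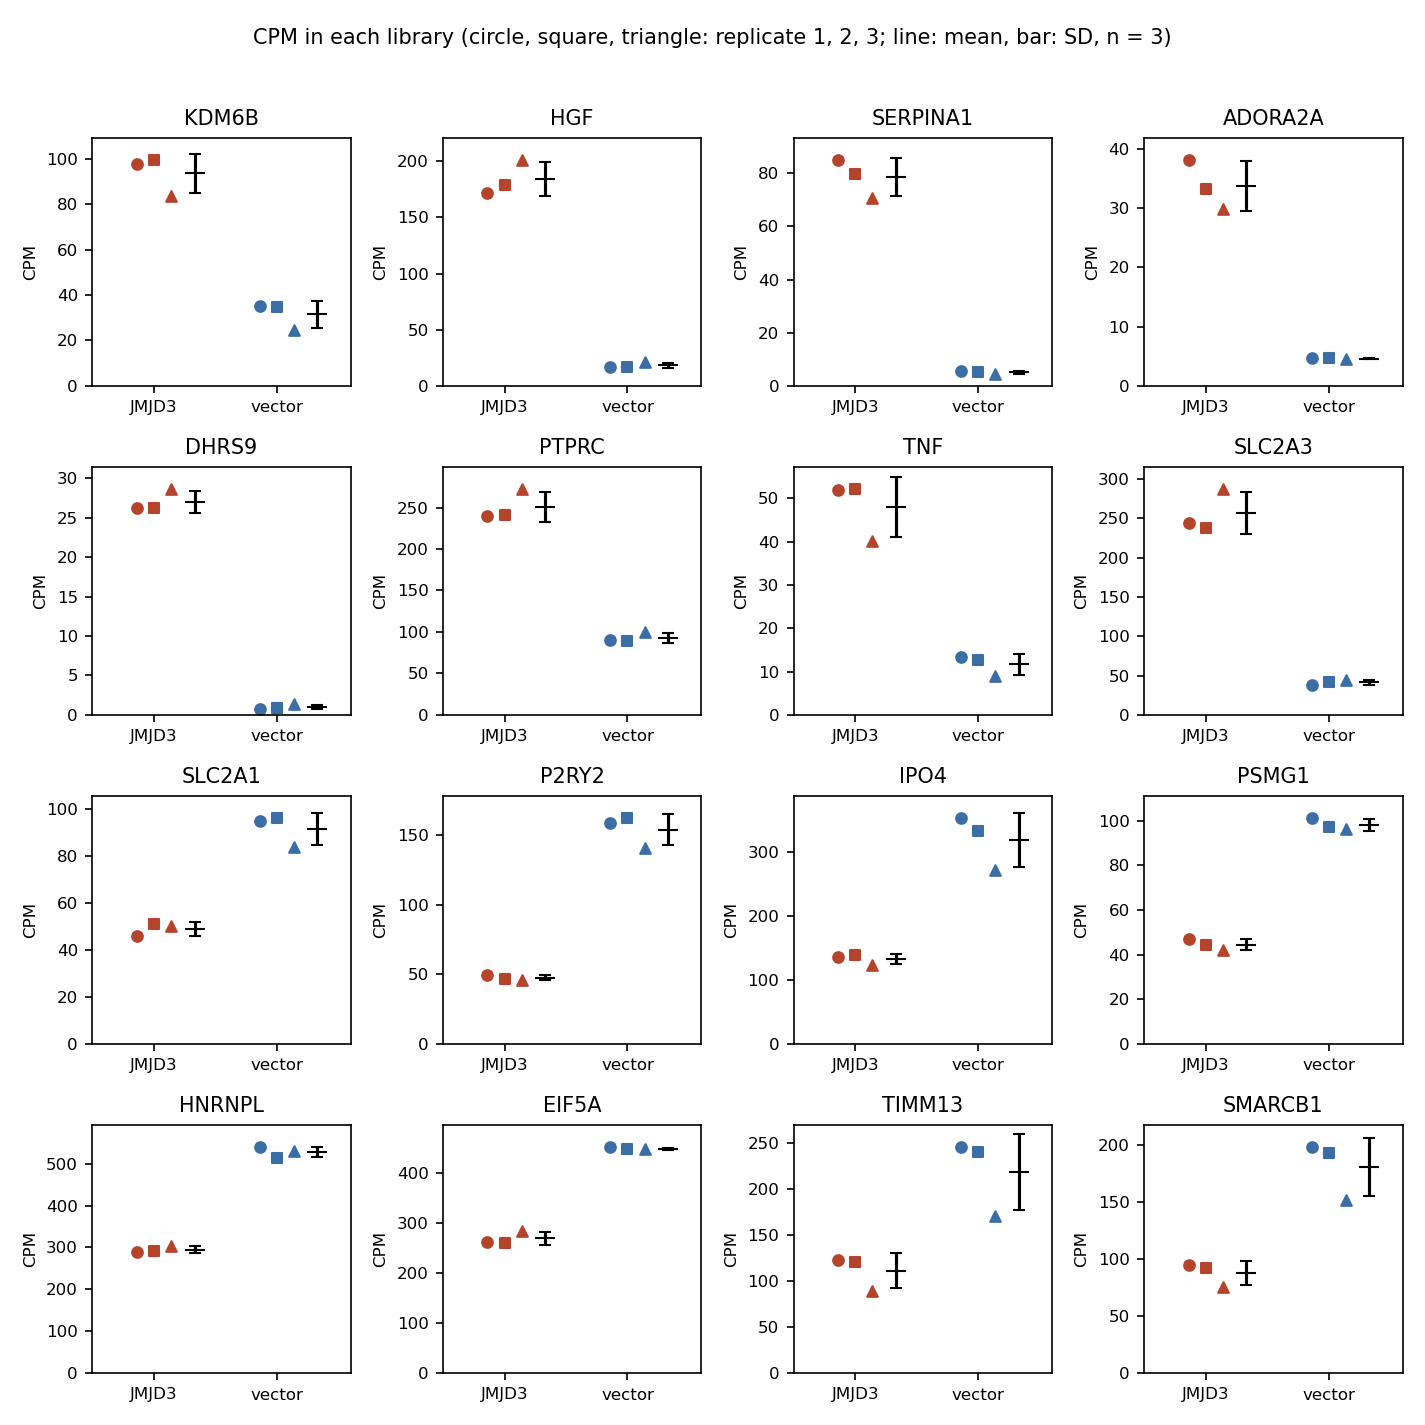
TMM-scaled CPM of 16 genes in each JMJD3 library (left, red) and each vector library (right, blue), with the symbol giving the replicate number and the black line and bar the mean and SD (n = 3); each axis starts at 0. JMJD3 and vector libraries do not overlap in any of the 16 panels, which for list genes named by rule was a condition of choice. In HGF, for example, the libraries run from 172 to 201 CPM in JMJD3 and from 16.8 to 20.9 CPM in vector cells.

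A total of 14322 genes passed the expression filter and were tested. Of these, 3786 (26.4%) were called higher and 3421 (23.9%) lower in JMJD3 cells at an adjusted p under 0.05, so 50.3% of tested genes were called. In bulk RNA, a change in the share of cells and a change in RNA per cell cannot be told apart. The rises were larger: 1688 genes (11.8%) were called higher and 327 (2.28%) lower with a log2 change of 1 or more. A fit with replicate number as block called 5215 (36.4%) higher and 5274 (36.8%) lower. Because replicates 1 and 2 lay close together, they were also summed into 1 library in each group. This fit, called the summed fit below, tested 15260 genes under the same filter rule and called 2662 (17.4%) higher and 1689 (11.1%) lower. Its counts for each program are given with the number higher first. All 3786 genes called higher were above vector within each of the 3 replicate numbers, with median log2 ratios of 0.86, 0.85 and 0.87. Of the 3421 genes called lower, 3419 were below vector in each, with medians of -0.51, -0.51 and -0.50. The calls came from these same libraries, so this agreement follows largely from the selection and is no separate test. Over all genes tested, the medians were -0.01, -0.01 and 0.01. With scaling to library size alone the median of all genes shifted by 0.14 and the calls became 4788 higher and 2202 lower, 68.5% higher against 52.5% with TMM. Upper-quartile scaling shifted the median by 0.09 and gave 4389 and 2660, or 62.3% higher. Small changes of whole programs are therefore read relative to that shift.

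Rises and falls differed in expression level. Among the 2303 genes with a mean of 100 CPM or more over the 6 libraries, 11.7% were called higher and 45.8% lower in JMJD3 cells, with a median log2 fold change of -0.22. Among the 3298 genes between 1 and 10 CPM the shares were 38.3% and 12.6% and the median was 0.25. Genes called higher had a median of 12 CPM in JMJD3 and 5.65 CPM in vector cells, and genes called lower 45.6 CPM in JMJD3 and 65.3 CPM in vector cells.

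**Figure D2:**
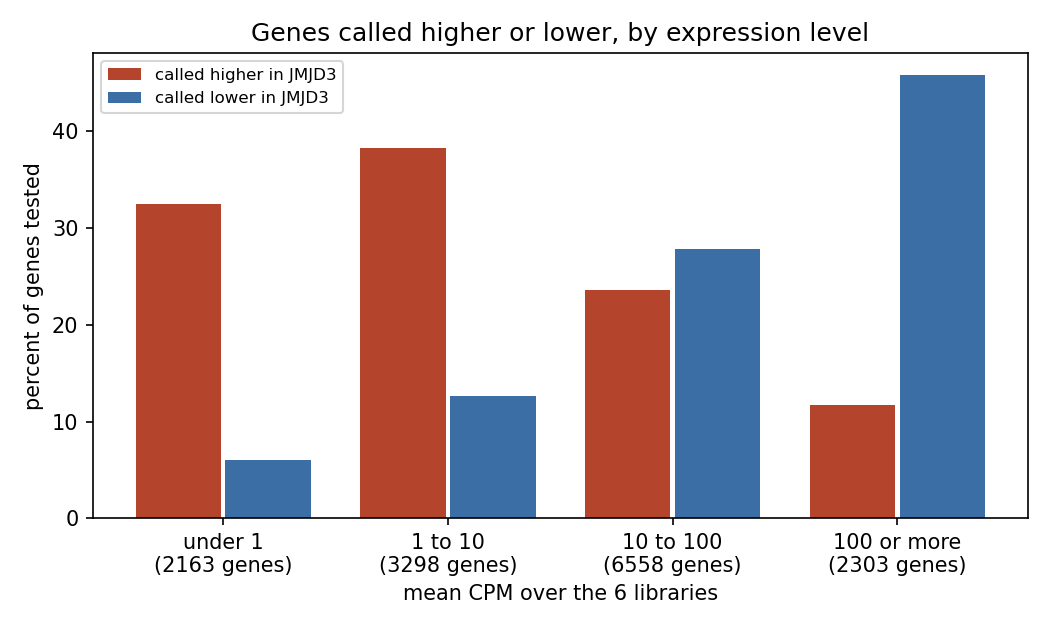
Percent of tested genes called higher (red, left bar) or lower (blue, right bar) in JMJD3 cells, grouped by mean CPM over the 6 libraries. The share of genes called lower reaches 45.8% at 100 CPM or more, where 11.7% were called higher.

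Promoter CpG content, which the comparison did not use, was read from RefSeq promoters (GRCh38.p14, 250 bases before to 50 after the gene start), because H3K27me3 is known for CpG-rich promoters. The motif counted was CG, which reads the same on both strands, and 99.5% of promoters held at least 1. Of 11548 tested protein-coding genes on the chromosomes of that promoter set, 9664 (83.7%) matched by symbol. The ratio of observed to expected CpG had a median of 0.79 in genes called higher, against 0.87 in genes called lower, 0.85 in genes not called and 0.84 in all. CpG-poor promoters, with a ratio under 0.4, made up 19.4% of genes called higher, 5.09% of genes called lower, 8.98% of genes not called and 10.8% of all. Genes called higher that already had 10 CPM or more in vector cells had a median of 0.83, with 12.5% CpG-poor, so the share moved with expression level. These values are a description with no test.

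Among the programs with promoters for at least 80% of members, the median ratio was lowest in eicosanoid genes (0.31) and TNF superfamily genes (0.44) and highest in splicing factors (0.97). The promoters of 4 genes are shown as single examples, with CG pairs in capitals, and do not stand for their lists. HGF, a growth factor gene that rose, has 7 CG pairs in 300 bases, a ratio of 0.39. CST3, the cystatin C gene, also rose and has 21 CG pairs and a ratio of 0.73, so a rise was not limited to CpG-poor promoters. PSMG1, a proteasome assembly chaperone that fell, has 36 CG pairs and a ratio of 0.99. Its list, proteasome subunits, had a lower median of 0.78, against 0.84 in all tested protein-coding genes. HNRNPL, a splicing regulator that fell, has 28 and a ratio of 0.87. Each is printed 5′ to 3′ on the strand of the gene, which is minus for all 4.
HGF (chr7:81769998-81770297): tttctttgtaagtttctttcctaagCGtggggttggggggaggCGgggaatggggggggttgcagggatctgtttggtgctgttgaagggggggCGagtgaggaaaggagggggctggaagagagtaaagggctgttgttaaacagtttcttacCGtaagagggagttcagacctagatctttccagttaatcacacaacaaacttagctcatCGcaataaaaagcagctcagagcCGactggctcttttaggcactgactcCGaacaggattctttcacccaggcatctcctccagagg
CST3 (chr20:23637906-23638205): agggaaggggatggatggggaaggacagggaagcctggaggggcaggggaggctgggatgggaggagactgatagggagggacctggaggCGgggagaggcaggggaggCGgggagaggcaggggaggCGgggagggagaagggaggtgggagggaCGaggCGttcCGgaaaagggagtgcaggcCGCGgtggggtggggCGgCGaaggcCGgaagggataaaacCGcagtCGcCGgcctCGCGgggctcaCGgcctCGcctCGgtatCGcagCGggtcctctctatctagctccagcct
PSMG1 (chr21:39183402-39183701): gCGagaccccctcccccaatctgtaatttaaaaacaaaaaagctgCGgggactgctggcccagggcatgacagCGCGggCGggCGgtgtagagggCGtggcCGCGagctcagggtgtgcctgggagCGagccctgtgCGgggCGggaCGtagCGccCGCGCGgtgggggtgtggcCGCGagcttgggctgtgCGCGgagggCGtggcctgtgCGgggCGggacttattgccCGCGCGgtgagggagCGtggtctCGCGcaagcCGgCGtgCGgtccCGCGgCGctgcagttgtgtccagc
HNRNPL (chr19:38852298-38852597): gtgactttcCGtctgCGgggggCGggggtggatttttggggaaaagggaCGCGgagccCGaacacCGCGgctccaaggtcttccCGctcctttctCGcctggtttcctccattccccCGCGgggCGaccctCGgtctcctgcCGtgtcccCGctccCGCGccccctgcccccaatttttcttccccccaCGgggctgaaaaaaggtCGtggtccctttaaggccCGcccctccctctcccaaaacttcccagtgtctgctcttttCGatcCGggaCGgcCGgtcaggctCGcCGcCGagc

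**Figure D3:**
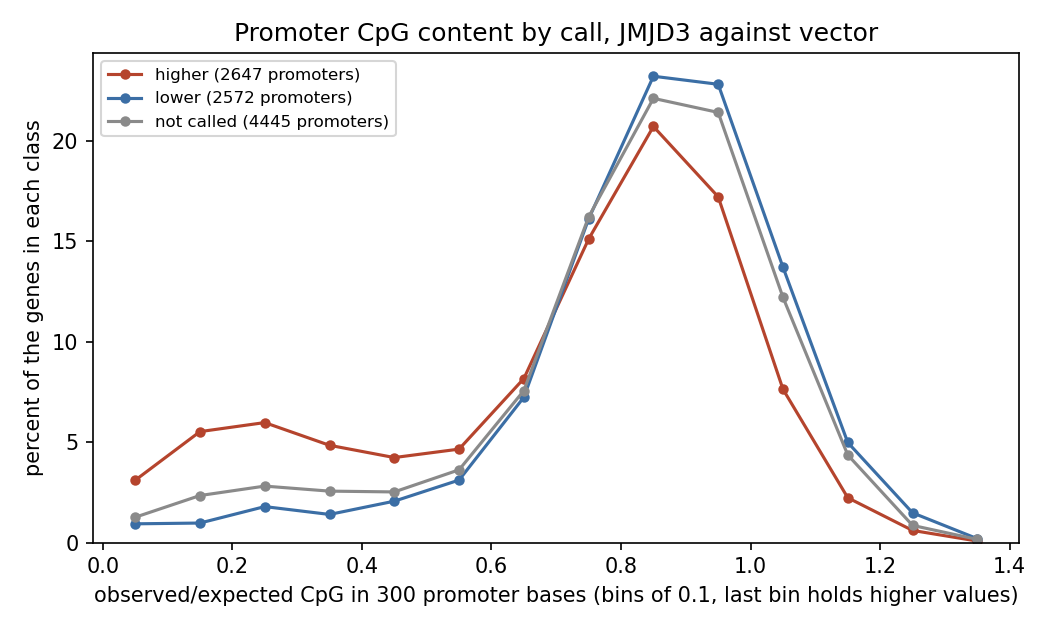
Distribution of the observed/expected CpG ratio in 300 promoter bases for genes called higher (red, 2647 promoters), lower (blue, 2572) and not called (grey, 4445) in JMJD3 cells, as percent of each class per bin of 0.1. Genes called higher have a second, low shoulder under 0.4, which holds 19.4% of them against 5.09% of genes called lower.

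The 39 programs held 1391 genes, of which 1261 were tested, 370 called higher and 392 lower. Counts per list are to be set beside the 26.4% higher and 23.9% lower over all genes tested. No list was matched for expression level, with which these shares changed as given above. List genes named by rule had to show no overlap between libraries, so that remark on them is a condition of choice. Over all genes tested, all 3 JMJD3 libraries lay above all 3 vector libraries in 30.6% and below them in 28.3%. A gene near 0 in vector cells passed the filter only where JMJD3 cells had enough of it, so counts and medians over tested members favour rises in lists of inducible genes and are not those of all members.

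Secreted signals were mostly higher in JMJD3 cells. The cytokine and growth factor list held 25 tested genes of 41, of which 16 were called higher (26.4% over all genes tested) and 1 lower (23.9%), with a median log2 fold change of 0.77 against 0.00 over all genes tested. Hepatocyte growth factor HGF, a ligand of the receptor MET, was at 172, 179 and 201 CPM in JMJD3 libraries, against 17, 16.8 and 20.9 CPM in vector libraries. All JMJD3 libraries lay far above all vector libraries, and replicate 3 was the highest of each group. Its log2 fold change was 3.33 ± 0.116 (adjusted p 2.18e-06). The epidermal growth factor receptor ligands TGFA (2.78 ± 0.13) and HBEGF (2.74 ± 0.0999) rose, to 7.85 ± 0.658 and 14.7 ± 0.569 CPM in JMJD3 cells, against 1.14 ± 0.0339 and 2.2 ± 0.0909 CPM in vector cells (mean ± SD, n = 3).

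Of abundant members, chosen after their values were seen, progranulin GRN (1.18) and the latent cytokine TGFB1 (0.77) rose as well. The cytokine MIF was the single member called lower, at 523, 510 and 349 CPM in JMJD3 and 983, 941 and 602 CPM in vector libraries. Its groups did not overlap, but replicate 3 was far below the other 2 libraries in each (log2 fold change -0.87 ± 0.217, adjusted p 0.0121). Members near 0 in vector cells stayed low in JMJD3 cells too: IL1B reached 2.05 ± 0.649 CPM, and EBI3 and IL10 had 88 and 46 counts in JMJD3 cells against 0 in vector cells, at least 25.8-fold and 13.5-fold higher. The block gave 18 higher and 3 lower, against 15 and 0 in the summed fit.

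TNF superfamily ligands and receptors, which control inflammation, survival and lymphocyte help, were mostly higher too. Of 31 listed, 19 were tested, and 14 were called higher and 1 lower, with a median of 0.84. The ligand TNF was at 52, 52.1 and 40.1 CPM in JMJD3 libraries, against 13.3, 12.7 and 8.93 CPM in vector libraries, with no overlap (log2 fold change 2.05 ± 0.175, adjusted p 8.37e-05). TNFSF9, the ligand of 4-1BB, rose by 3.01 ± 0.188 and the TWEAK receptor TNFRSF12A by 1.61 ± 0.166. TNFRSF8 (CD30) was the member called lower (-0.60 ± 0.102). The block gave 15 higher and 2 lower, against 12 and 1 in the summed fit.

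Extracellular proteases and their inhibitors had the highest median of the 39 lists, 1.12. Of 32 listed, 23 were tested, 15 were called higher and 1, SERPINB2, lower (-0.27), a call lost without any single library other than vector replicate 2. The neutrophil elastase inhibitor SERPINA1 (alpha-1 antitrypsin) was at 84.9, 79.9 and 70.8 CPM in JMJD3 libraries, against 5.56, 5.06 and 4.49 CPM in vector libraries. The 2 groups stood far apart, and replicate 3 was the lowest of each. Its log2 fold change was 3.97 ± 0.116 (adjusted p 1.25e-06). Cystatin C (CST3), an inhibitor of cysteine proteases, rose by 4.13 ± 0.269 to 19.3 ± 3.76 CPM in JMJD3 cells, against 1.13 ± 0.435 CPM in vector cells, and the membrane metalloprotease MMP15 rose by 2.30 ± 0.166. TIMP1 (1.46) and TIMP2 (1.30), inhibitors of metalloproteases chosen after their values were seen, also rose. The block gave 19 higher and 2 lower, against 13 and 0 in the summed fit.

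Guidance molecules of the semaphorin, plexin and ephrin families, which steer cell contact and migration, also rose: of 26 listed, 21 were tested, 14 were called higher and 3 lower, with a median of 0.48. The ephrin receptor EPHB2 was at 16.1, 16.1 and 15.5 CPM in JMJD3 libraries, against 2.48, 2.97 and 2.02 CPM in vector libraries, with no overlap (2.68 ± 0.141, adjusted p 9.15e-06). The ligands SEMA6B (2.67 ± 0.158) and SEMA4C (2.09 ± 0.0764) rose to 31.4 ± 3.62 and 47.4 ± 1.42 CPM in JMJD3 cells, against 4.98 ± 0.92 and 11.1 ± 0.465 CPM in vector cells. PLXNA1, EFNB2 and PLXNB1 were called lower, with log2 fold changes of -0.40, -0.30 and -0.29. The block gave 15 higher and 5 lower, against 9 and 0 in the summed fit.

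Receptors for extracellular nucleotides and adenosine changed in both directions. Of 24 purinergic genes, 19 were tested, 12 were called higher and 4 lower, with a median of 0.92 (11 and 2 in the summed fit). The adenosine receptor ADORA2A, which raises cAMP and dampens leukocyte activation, was at 38.1, 33.3 and 29.8 CPM in JMJD3 libraries, against 4.65, 4.62 and 4.49 CPM in vector libraries. The vector libraries were nearly level, and every JMJD3 library lay above them (log2 fold change 2.87 ± 0.116, adjusted p 3.6e-06). The ADP receptor P2RY13 rose by 3.97 ± 0.174, to 5.35 ± 0.446 CPM in JMJD3 cells, against 0.342 ± 0.0471 CPM in vector cells. The ATP and UTP receptor P2RY2 went the other way, at 49.4, 46.4 and 46.2 CPM in JMJD3 libraries, against 159, 162 and 141 CPM in vector libraries. No libraries overlapped, and the log2 fold change was -1.70 ± 0.0809 (adjusted p 5.47e-06). P2RY8, P2RY6 and ADA, which degrades adenosine, were the other members called lower (-0.74, -0.31 and -0.29).

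Eicosanoids are lipid mediators made from arachidonic acid by the leukotriene and prostaglandin enzymes. Of 33 listed genes, 23 were tested, 13 were called higher and 3 lower, with a median of 0.41. The receptor for platelet-activating factor, PTAFR, was at 61.7, 58.9 and 66 CPM in JMJD3 libraries, against 8.95, 9.48 and 9.15 CPM in vector libraries, and no libraries overlapped (2.76 ± 0.0812, adjusted p 1.17e-06). HPGD, which inactivates prostaglandins, rose by 2.80 ± 0.143, and ALOX5AP, which presents arachidonic acid to 5-lipoxygenase, by 1.13 ± 0.0718. ALOX5, the 5-lipoxygenase gene itself, did not pass the filter. The thromboxane receptor TBXA2R had 188 counts in JMJD3 and 0 in vector cells, at least 55.1-fold higher, at a level under 2 CPM. The block gave 13 higher and 6 lower, against 10 and 2 in the summed fit.

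Retinoic acid and vitamin D are classical differentiation agents of HL-60. Among 29 genes of their pathways, 17 were tested, 10 were called higher and 4 lower, with a median of 0.74 (10 and 1 in the summed fit). DHRS9, a dehydrogenase that oxidizes retinol, was at 26.2, 26.2 and 28.6 CPM in JMJD3 libraries, against 0.749, 0.877 and 1.31 CPM in vector libraries. It was close to absent in vector cells and rose by 4.75 ± 0.172 (adjusted p 2.38e-06). ASB2, known as a retinoic acid response gene in leukaemia cells, rose by 2.79 ± 0.142. Of the receptors themselves, RARG (2.08) and RXRA (0.51) rose and RXRB (-0.25) fell, while RARA (0.30 ± 0.176, adjusted p 0.2) and VDR (0.09 ± 0.0822, adjusted p 0.394) did not pass the test. The other members called lower were CYP27B1, RDH10 and RDH11. CYP26A1, RARB and CYP24A1, which respond to these ligands, did not pass the filter, and no member left out by it exceeded 1.74 CPM in any library.

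Tetraspanins, which organize membrane proteins, were mostly higher. Of 20 listed, 16 were tested, 10 were called higher and 2 lower (TSPAN3 and CD81), with a median of 0.77 (8 and 0 in the summed fit). CD82 was at 34.4, 34 and 34.3 CPM in JMJD3 libraries, against 7.02, 8.13 and 8.69 CPM in vector libraries, with no overlap (2.10 ± 0.0978, adjusted p 5.27e-06), and TSPAN9 (2.12 ± 0.125) and CD53 (0.99 ± 0.0907) also rose. Of 17 tested genes for selectin ligands and their sugar-adding enzymes, 9 were called higher and 4 lower, with a median of 0.28 (7 and 2 in the summed fit). GCNT1, which starts branched O-glycans, rose by 1.55 ± 0.145 and the sulfotransferase TPST2 by 0.94 ± 0.0918. The sialyltransferase ST3GAL4 (-0.86 ± 0.0891) and the fucosyltransferases FUT7 (-0.34) and FUT4 (-0.33) fell. The hyaluronan receptor CD44 was at 3.86, 3.58 and 4.27 CPM in JMJD3 libraries and 0.0394, 0.169 and 0.409 CPM in vector libraries, under 5 CPM in all of them and apart between groups.

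Among 20 tested protein tyrosine phosphatases, 8 were called higher (40%) and 3 lower (15%), against 26.4% and 23.9% over all genes tested. The list median was 0.05. PTPRC (CD45), the abundant leukocyte phosphatase, was at 240, 241 and 272 CPM in JMJD3 libraries, against 90.8, 88.5 and 99.3 CPM in vector libraries, and the groups did not overlap (1.43 ± 0.083, adjusted p 1.42e-05). PTPRE rose by 1.30 ± 0.0632 and PTP4A3 by 2.43 ± 0.115. PTPN2, a phosphatase that turns off JAK signalling, fell to 43.6 ± 1.65 CPM in JMJD3 cells, against 85.7 ± 4.59 CPM in vector cells (-0.98 ± 0.0734). The block gave 10 higher and 8 lower, against 7 and 2 in the summed fit.

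Of 47 G protein, RGS and cAMP genes, all tested, 23 were called higher and 7 lower (median 0.30; 27 higher and 15 lower with the block, 14 and 6 in the summed fit). The phosphodiesterase PDE4B, which breaks down cAMP, rose by 1.88 ± 0.0753, at 51.5, 49.4 and 50.6 CPM in JMJD3 and 13.2, 13.4 and 14.5 CPM in vector libraries. The 3 libraries of each group lay within a narrow range and far from the other group. The transcription factor CREB5 (2.49 ± 0.196) and the subunit GNG7 (2.0 ± 0.141) rose too, while RGS16 (-1.08), GNB4 (-0.99) and GNAS (-0.58) were among those that fell. Of 37 phosphoinositide genes, 15 were called higher and 4 lower (median 0.24; 22 higher and 9 lower with the block, 9 and 1 in the summed fit). The phospholipases PLD2 (3.06 ± 0.208) and PLD1 (1.0 ± 0.143) were among the rises.

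For the actin cytoskeleton, 22 of 54 tested members were called higher and 5 lower, with a median of 0.14, and the block gave 33 higher and 8 lower, against 11 and 3 in the summed fit. The bundling protein FSCN1 had 698, 734 and 771 counts in JMJD3 libraries, against 1, 0 and 1 in vector libraries, a ratio of 969 (95% counting interval 268 to 8002.7). Filament-capping CAPG (2.07 ± 0.0845) and severing GSN (1.6 ± 0.0865) rose, as did the monomer-binding TMSB4X (1.16). ARPC2, ARPC3, CFL1 and PFN1, of the Arp2/3 complex and actin turnover, were among the 27 members that did not pass the test. Tubulins and microtubule proteins were more often lower: of 26 tested, 13 were called lower and 6 higher, with a median of -0.32 (5 and 6 in the summed fit). The main alpha-tubulin TUBA1B was at 1253.6, 1221.6 and 1052.8 CPM in JMJD3 libraries, against 2350.8, 2221.1 and 1864.2 CPM in vector libraries, with no overlap (-0.87 ± 0.106, adjusted p 0.000437). STMN1, which destabilizes microtubules and is known from dividing cells, also fell (-0.76 ± 0.0559). TUBA4A (0.72) and the end-binding MAPRE3 (1.85 ± 0.137) rose. Tubulin genes are similar in sequence, so reads may be split among them.

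In vesicle traffic and degradation, 41.7% of tested Rab and secretion genes were called higher, against 26.4% over all genes tested. Autophagy (34.9%) and V-ATPase genes (31.6%) lay closer to that share. Among all genes between 1 and 10 CPM it was 38.3%, and between 10 and 100 CPM 23.6%. These lists were not matched for level. Of 48 tested Rab and secretion genes, 20 were called higher and 8 lower (median 0.14; 25 higher and 15 lower with the block, 14 and 2 in the summed fit). RAB37, a Rab of secretory granules, was at 86.8, 81.1 and 78.3 CPM in JMJD3 libraries, against 15.5, 15.6 and 16.2 CPM in vector libraries, a log2 fold change of 2.38 ± 0.0754 (adjusted p 1.25e-06). The granule tether SYTL3 (1.73 ± 0.128) and the SNARE STX11 (1.57 ± 0.21), needed for cytotoxic granule release, rose. Among 43 tested autophagy genes, 15 were called higher and 5 lower (median 0.18; 23 higher and 9 lower with the block, 9 and 1 in the summed fit). WIPI1 (2.65 ± 0.122), ATG16L2 (1.24 ± 0.118) and the cargo receptor SQSTM1 (1.13 ± 0.0933) led the rises, and ATG3, ATG5, PIK3C3, TAX1BP1 and CALCOCO2 fell by 0.28 to 0.62 on the log2 scale. Of 19 tested V-ATPase subunits, the proton pump of lysosomes, 6 were called higher and 1 lower, with a median of 0.00, which was 0.14 under library-size scaling, and the block gave 7 higher and 7 lower, against 1 and 0 in the summed fit. TCIRG1 (0.70 ± 0.178) and ATP6V0A1 (0.64 ± 0.0669) rose and ATP6V1E2 fell (-0.55 ± 0.156). The call for TCIRG1 was lost with replicates 1 and 2 summed. That for ATP6V1E2 was lost there too (adjusted p 0.079) and under library-size scaling (0.0577). The ATP6V1E2 call was also lost without JMJD3 replicate 2 or 3 or vector replicate 2 (adjusted p 0.0621, 0.053 and 0.0625).

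Inflammasome and NOD-like receptor genes, sensors that activate caspase-1, had 11 of 20 tested members called higher and 0 lower by edgeR, with a median of 0.54. At an unadjusted p under 0.05, and with DESeq2, the count lower was also 0, and with the block 12 were higher and 3 lower, against 11 and 0 in the summed fit. P2RX7 stands in this list and in the purinergic list. TXNIP, which binds thioredoxin and NLRP3, was at 448, 443 and 532 CPM in JMJD3 libraries, against 173, 174 and 197 CPM in vector libraries, with no overlap (1.39 ± 0.0974, adjusted p 3.48e-05). The ATP-gated channel P2RX7 (1.05 ± 0.135), CARD8 (0.83 ± 0.0837) and NLRP3 (0.78 ± 0.0776) rose. Caspase-1 (CASP1, -0.22 ± 0.105, adjusted p 0.114) and the adaptor PYCARD (-0.21 ± 0.189, adjusted p 0.401) did not pass the test.

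In the TGF-beta, Notch and Wnt list 23 of 48 tested members were called higher and 5 lower (median 0.24; 28 higher and 11 lower with the block, 14 and 2 in the summed fit). The receptor BMPR2 (1.08 ± 0.164), the inhibitory SMAD7 (0.92 ± 0.101) and the Wnt receptor FZD2 (1.0 ± 0.247) rose, each to a mean under 15 CPM in JMJD3 cells. FZD2 lost its call with replicates 1 and 2 summed. Receptor-activated SMAD3 (0.81) rose, while SMAD2 (-0.36) and the common SMAD4 (-0.44) fell. Among 35 tested ion channel, calcium and water genes, 13 were called higher (37.1%) and 4 lower (11.4%), against 26.4% and 23.9% over all genes tested. Their median was 0.16, and the block gave 19 higher and 8 lower, against 10 and 2 in the summed fit. The calcium-activated cation channel TRPM4 was at 37.7, 38.1 and 31.6 CPM in JMJD3 libraries, against 3.51, 2.9 and 1.96 CPM in vector libraries, apart in every library (3.70 ± 0.196, adjusted p 9.53e-06). The potassium channel genes KCNJ15 (3.08 ± 0.182) and KCNE3 (2.16 ± 0.167) rose as well.

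**Figure D4:**
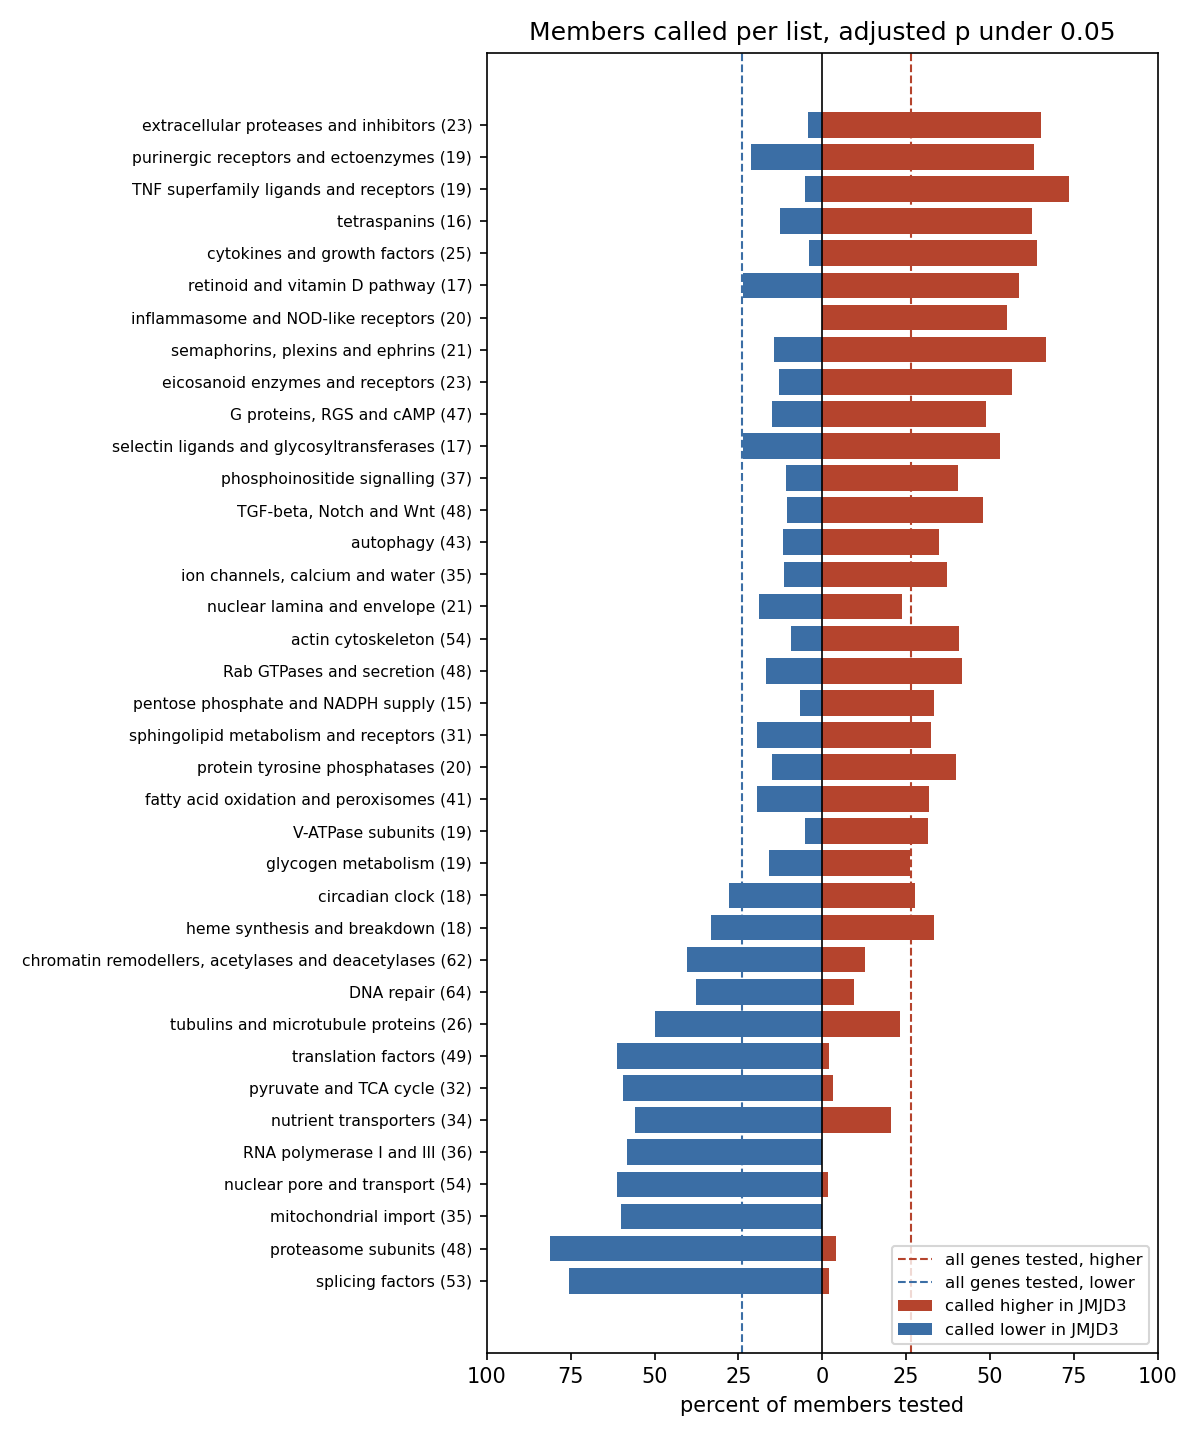
Percent of the tested members of each of 37 gene lists called higher (red, right) or lower (blue, left) in JMJD3 cells, with the number of tested members in brackets and dashed lines at the shares over all genes tested (26.4% higher, 23.9% lower). Proteasome subunits (39 of 48 lower) and splicing factors (40 of 53 lower) stand at the bottom, and TNF superfamily genes have the largest red bar (14 of 19 higher).

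Programs of RNA and protein production fell together by small amounts. Among all genes at 100 CPM or more, 45.8% were called lower, with a median of -0.22, and these lists were not matched for level. Splicing factors had 40 of 53 tested members called lower and 1 higher, MBNL2 (0.48 ± 0.0986), with a median of -0.51 (0 and 30 in the summed fit). HNRNPL, whose promoter is shown above, was at 288, 292 and 304 CPM in JMJD3 libraries, against 539, 515 and 530 CPM in vector libraries. The libraries of each group lay close together and the groups did not overlap (-0.84 ± 0.0601, adjusted p 3.39e-05). The core protein SNRPD1 (-0.88 ± 0.0742) and U2AF2, which recognizes the end of introns (-0.84 ± 0.118), fell similarly. Members of the small nuclear ribonucleoproteins, the SF3 complex, the SR proteins and the hnRNPs were among those called lower. SF3B1, SRSF1 and CELF1 were among the 12 that did not pass the test.

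Nuclear pore and transport genes, which carry RNA and protein across the nuclear envelope, had 33 of 54 members called lower and 1, NUP58, higher (0.34 ± 0.11; not called without JMJD3 replicate 2 or 3 or vector replicate 1 or 2), with a median of -0.39 (4 higher and 48 lower with the block, 0 and 16 in the summed fit). The importin IPO4 was at 136, 138 and 123 CPM in JMJD3 libraries, against 352, 332 and 271 CPM in vector libraries. Replicate 3 was the lowest of each group, and the groups stayed apart (-1.27 ± 0.109, adjusted p 8.53e-05). IPO5 was at 403, 401 and 521 CPM in JMJD3 and 749, 735 and 977 CPM in vector libraries, where replicate 3 was instead the highest of each group (-0.89 ± 0.145). SEH1L, a pore subunit, fell (-0.82 ± 0.113), as did the GTPase RAN (-0.78) and the exporter XPO1 (-0.50).

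Translation factors had 30 of 49 members called lower and 1, EIF4G3, higher (0.37 ± 0.0632), with a median of -0.32 (3 higher and 40 lower with the block, 0 and 15 in the summed fit). EIF5A was at 263, 261 and 285 CPM in JMJD3 libraries, against 452, 448 and 448 CPM in vector libraries, with no overlap (-0.74 ± 0.0634, adjusted p 7.9e-05). EIF3B fell (-0.72 ± 0.0571), and so did EIF4EBP1, an inhibitor of cap-dependent initiation (-0.79 ± 0.216). The call for EIF4EBP1 was lost without vector replicate 1 (adjusted p 0.0603) or 2 (0.0573). It was also lost with no filter on low counts (0.0897) and in the summed fit (0.0847). The abundant elongation factors EEF1A1 (-0.18 ± 0.0897) and EEF2 (-0.07 ± 0.0597) did not pass the test. RNA polymerase I and III genes had 21 of 36 members called lower and 0 higher by edgeR, with a median of -0.35, and 2 higher and 28 lower with the block, 0 and 10 in the summed fit. At an unadjusted p under 0.05, and with DESeq2, the count higher was also 0. UBTF, the factor that opens ribosomal DNA, fell (-0.65 ± 0.0706), as did GTF3C6 (-0.92 ± 0.0752).

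Of 48 proteasome subunits and assembly factors 39 were called lower and 2 higher, with a median of -0.47 (2 and 23 in the summed fit). The assembly chaperone PSMG1 was at 47, 44.1 and 42.1 CPM in JMJD3 libraries, against 101, 97.3 and 96.1 CPM in vector libraries, less than 1 in 2 of the vector level in each pair of replicates (-1.14 ± 0.0717, adjusted p 1.87e-05). The core subunit PSMA6 fell too (-0.67 ± 0.0992). Of the immunoproteasome subunits, which replace catalytic subunits in immune cells, PSMB9 rose (1.13 ± 0.129), at 15.3, 14.3 and 12.7 CPM in JMJD3 and 7.41, 5.6 and 6.43 CPM in vector libraries, while PSMB8 (-0.53) and PSMB10 (-0.59) fell. The second member called higher, PSMD5, had 58 counts in JMJD3 and 0 in vector cells, at a level under 1 CPM.

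Mitochondrial import had 21 of 35 members called lower and 0 higher by edgeR, also 0 with the block, with DESeq2 and at an unadjusted p under 0.05, and a median of -0.44 (0 and 16 in the summed fit). TIMM13, a chaperone of the space between the membranes, was at 123, 121 and 89.5 CPM in JMJD3 libraries, against 245, 240 and 171 CPM in vector libraries. Replicate 3 was well below the other 2 in both groups, and no libraries overlapped (-0.98 ± 0.173, adjusted p 0.00258). The folding pair HSPD1 (-0.88 ± 0.144) and HSPE1 (-0.93 ± 0.205) fell as well. In the pyruvate and TCA cycle list 19 of 32 tested members were called lower and 1, the kinase PDK3, higher (0.35 ± 0.122; not called when any library other than vector replicate 3 was left out), with a median of -0.32 (2 higher and 26 lower with the block, 0 and 8 in the summed fit). DLAT, of the pyruvate dehydrogenase complex (-0.69 ± 0.0803), the citrate-cleaving enzyme ACLY (-0.64 ± 0.0583) and IDH3B (-0.63 ± 0.0639) led the falls.

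Nutrient transporters changed in both directions. Of 34 tested, 19 were called lower and 7 higher, with a median of -0.32 (5 and 11 in the summed fit). The glucose transporter SLC2A3 (GLUT3) was at 244, 238 and 287 CPM in JMJD3 libraries, against 38.2, 42.1 and 44.3 CPM in vector libraries. The glucose transporter SLC2A1 (GLUT1) moved the other way, at 45.8, 51 and 50.1 CPM in JMJD3 and 94.9, 96.1 and 83.8 CPM in vector libraries. Neither gene showed any overlap between groups, and the log2 fold changes were 2.63 ± 0.103 (adjusted p 3.19e-06) and -0.90 ± 0.084 (adjusted p 0.000123). SLC2A1 was chosen after its values were seen, and reads of SLC2A3 may be shared with the similar gene SLC2A14. The peptide transporter SLC15A3 (1.86 ± 0.144) and the lactate exporter SLC16A3 (0.82) rose. SLC2A8 (-0.99 ± 0.136) and the amino acid transporters SLC7A5 (-0.49), SLC1A5 (-0.48), SLC38A5 (-0.82) and SLC7A1 (-0.28) fell. Under library-size scaling, the medians of splicing factors, proteasome, nuclear pore, mitochondrial import and nutrient transporter genes stayed below 0, at -0.37, -0.33, -0.24, -0.30 and -0.18, as did those of tubulins, translation factors, TCA cycle (-0.18 each) and RNA polymerase I and III (-0.21).

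Of tested DNA repair and chromatin genes, 37.5% and 40.3% were called lower, against 23.9% over all genes tested. That share was 27.8% of all genes between 10 and 100 CPM and 45.8% of those at 100 CPM or more. The lists were not matched for level. Of 64 tested DNA repair genes, 24 were called lower and 6 higher (median -0.17, and -0.02 under library-size scaling; 13 higher and 37 lower with the block, 6 and 13 in the summed fit). FANCF (1.79 ± 0.139), of the Fanconi anaemia core complex, rose, as did NEIL2 (1.15 ± 0.244), and NHEJ1 (-1.0 ± 0.112), of end joining, fell. PARP1, an abundant sensor of strand breaks, fell to 566 ± 7.4 CPM in JMJD3 cells, against 954 ± 20.8 CPM in vector cells (-0.75 ± 0.0554). Chromatin remodellers, acetylases and deacetylases had 25 of 62 tested members called lower and 8 higher (median -0.16, and -0.01 under library-size scaling; 15 higher and 37 lower with the block, 4 and 13 in the summed fit). Within the SWI/SNF complex SMARCB1 fell, at 95, 91.9 and 75.5 CPM in JMJD3 libraries, against 198, 193 and 152 CPM in vector libraries, with no overlap (-1.05 ± 0.131, adjusted p 0.000484). The alternative subunit SMARCD3 rose (2.17 ± 0.121) and its relative SMARCD1 fell (-0.84). The coactivator NCOA3 rose (1.0 ± 0.103), and the acetylases EP300 (-0.34) and CREBBP (-0.25) fell by small amounts. Nuclear lamina and envelope genes had 5 of 21 called higher (23.8%) and 4 lower (19%), both under the 26.4% and 23.9% over all genes tested. Their median was 0.14, and the block gave 12 higher and 7 lower, against 4 and 3 in the summed fit. Of single members, the linker genes SYNE1 (1.58 ± 0.156), SYNE2 (1.33 ± 0.117) and SUN2 (0.76 ± 0.099) rose. LMNB1 (-0.24) and LMNB2 (-0.48) fell.

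Other metabolic programs were near the background. The pentose phosphate and NADPH list had 5 of 15 tested members called higher and 1 lower (median 0.10; 9 higher and 6 lower with the block, 3 and 0 in the summed fit). Of its members that supply NADPH, H6PD (0.46 ± 0.0745) and ME1 (0.44 ± 0.121) rose. ME1 was not called without vector replicate 1 (adjusted p 0.0574) or 2 (0.0668), nor in the summed fit (0.0871).

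In fatty acid oxidation and peroxisomes, 13 of 41 tested members were called higher and 8 lower (median 0.02; 17 higher and 16 lower with the block, 10 and 4 in the summed fit), with small rises of the nuclear receptors PPARD (0.84 ± 0.0874) and PPARA (0.69 ± 0.0952) and of CPT1B (0.77 ± 0.154). Glycogen metabolism had 5 of 19 called higher (26.3%) and 3 lower (15.8%), against 26.4% and 23.9% over all genes tested. Its median was -0.08, and the block gave 6 higher and 9 lower, against 3 and 3 in the summed fit. The phosphorylase PYGL rose (0.61 ± 0.0647), at 440, 438 and 472 CPM in JMJD3 and 286, 294 and 306 CPM in vector libraries, as did the phosphatase subunits PPP1R3D (0.97 ± 0.0826) and PPP1R3B (0.82 ± 0.114). Of 31 tested sphingolipid genes, 10 were called higher and 6 lower (median 0.05; 14 higher and 11 lower with the block, 7 and 3 in the summed fit). The ganglioside synthase ST3GAL5 (2.96 ± 0.148), acid sphingomyelinase SMPD1 (2.83 ± 0.138) and the receptor S1PR3 (2.53 ± 0.159) each rose, to under 10 CPM in JMJD3 cells, against under 2 CPM in vector cells.

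Heme genes were even, with 6 of 18 tested called higher and 6 lower (median -0.12, 5 and 1 in the summed fit). The first enzyme of heme synthesis, ALAS1, was at 165, 165 and 166 CPM in JMJD3 libraries, against 86, 85.5 and 85.3 CPM in vector libraries, nearly the same in the 3 libraries of a group (0.95 ± 0.0603, adjusted p 1.95e-05). HMOX1, which breaks heme down, rose by 4.30 ± 0.238 to 7.44 ± 1.02 CPM in JMJD3 cells, against 0.388 ± 0.135 CPM in vector cells, and PPOX rose by 0.71 ± 0.103. UROD, FECH, CPOX, UROS and SLC25A38 were among the members called lower, by 0.22 to 0.40 on the log2 scale. Circadian genes had 5 of 18 tested called higher and 5 lower (27.8% each), near the 26.4% and 23.9% over all genes tested. Their median was -0.10, and the block gave 5 higher and 10 lower, against 3 and 2 in the summed fit. ARNTL (BMAL1), of the activating arm, rose (1.62 ± 0.105), and so did NFIL3 (1.34 ± 0.0885). TEF (-1.08 ± 0.0838), NR1D2 (-1.05), NR1D1 (-0.51), CRY1 (-0.37) and CRY2 (-0.26) fell. The medians of the glycogen, heme and circadian lists turned positive under library-size scaling, at 0.06, 0.02 and 0.04.

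**Figure D5:**
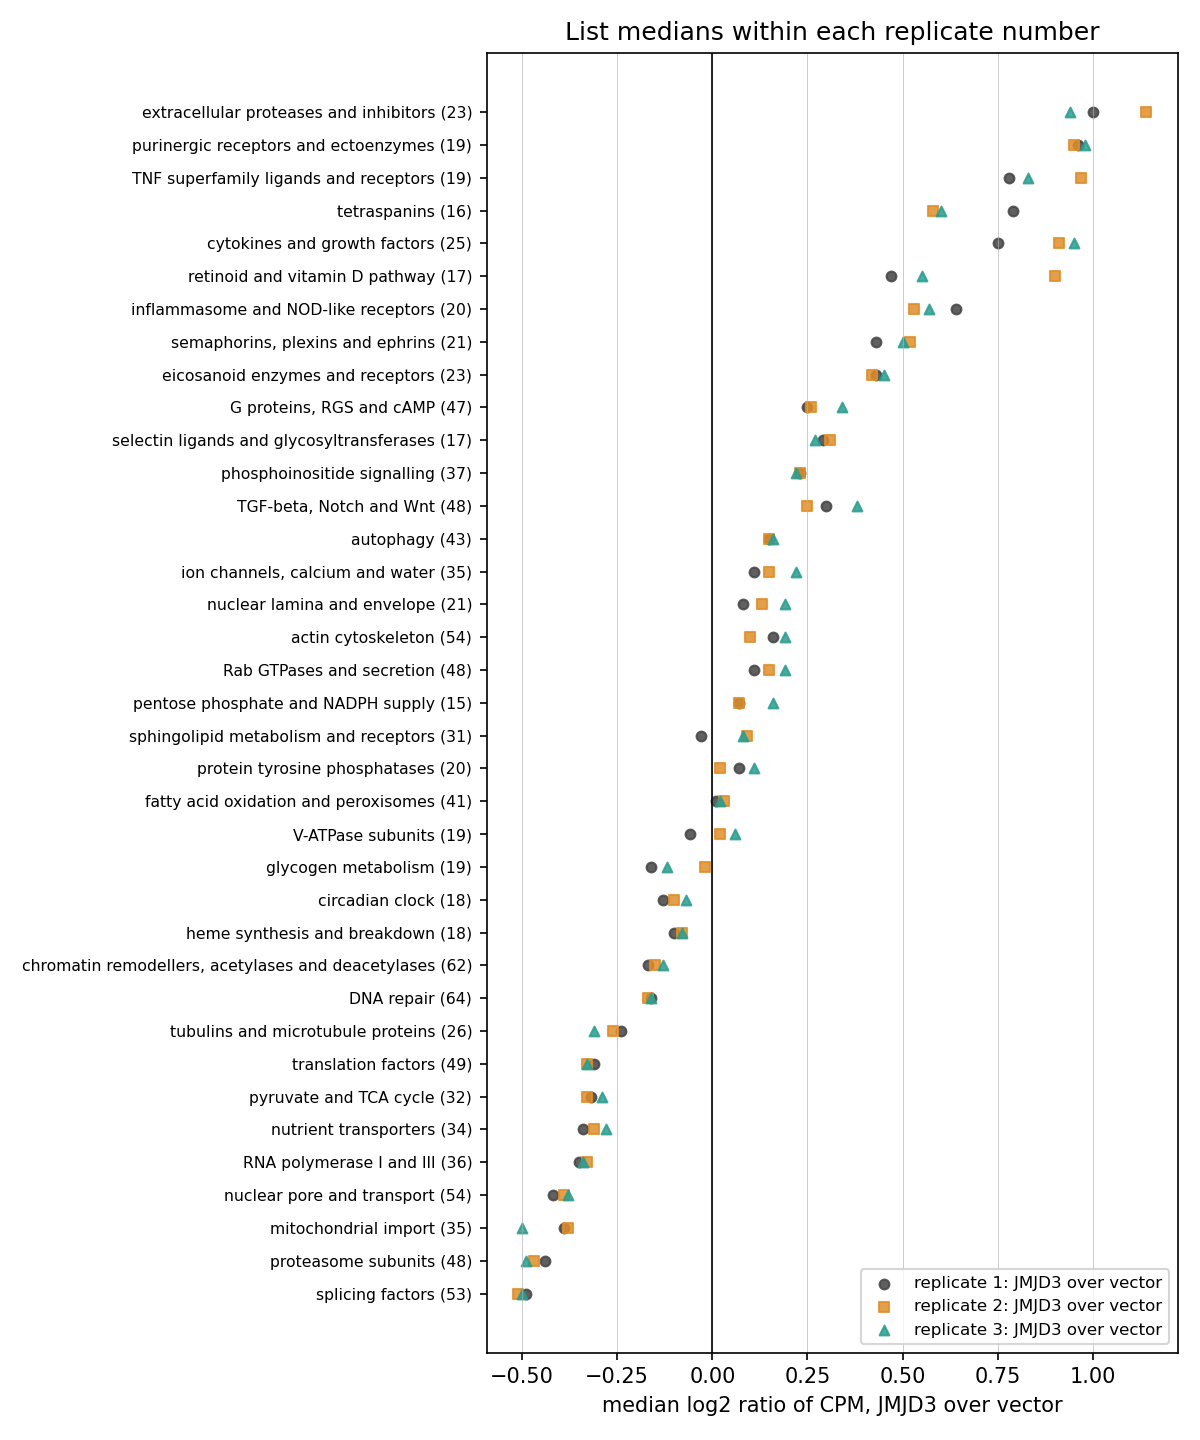
Median log2 ratio of CPM in JMJD3 over vector cells for the tested members of each of 37 gene lists (number in brackets), computed within replicate 1 (circles), 2 (squares) and 3 (triangles). The 9 lists at the bottom, from tubulins to splicing factors, lie below -0.2 in each replicate number, and the 9 lists at the top lie above 0.4.

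The programs had similar values within each replicate number, as the plot of list medians shows. Splicing factors were at -0.49, -0.51 and -0.50 in replicates 1, 2 and 3, and the retinoid and vitamin D list varied most among those that rose, at 0.47, 0.90 and 0.55. Replicate 3 also differed from replicates 1 and 2 inside a group. Its median difference from them on the log2 scale was 0.19 in JMJD3 and 0.19 in vector cells for nuclear pore genes, 0.13 and 0.13 for DNA repair genes, and -0.20 and -0.21 for TNF superfamily genes. It had opposite signs in JMJD3 and vector cells for several lists, some with values near 0. Among them were retinoid and vitamin D (-0.07 and 0.13), TGF-beta, Notch and Wnt (0.11 and -0.04) and pentose phosphate genes (0.11 and -0.01). What sets replicate 3 apart is not given in the labels.

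Outside the lists, the 8 largest rises and 8 largest falls with at least 20 CPM in the higher group are given as values. The rises were PADI4 (7.59), HDC (7.15), CYBB (6.81), CR1 (6.70), ITGAX (6.16), S100A8 (5.43), the galectin LGALS1 (5.42 ± 0.112) and EGR1 (4.97). The falls were IGLL1 (-5.52), PRTN3 (-3.75), HMGCS1 (-2.86 ± 0.17), the fatty acid desaturase FADS2 (-2.64 ± 0.11), the annexin ANXA6 (-2.49 ± 0.0867), SERPINB10 (-2.22), LSS (-2.11) and CTSG (-2.09). ANXA6 was at 4.65, 4.26 and 4.65 CPM in JMJD3 libraries, against 24.9, 25.6 and 25.7 CPM in vector libraries, and FADS2 was at 7.48, 6.8 and 5.91 CPM in JMJD3 and 44.1, 42.3 and 39.1 CPM in vector libraries. Both were several times lower in every JMJD3 library than in any vector library.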

How the data were processed

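Per the labels' protocols, an Illumina TruSeq RNA kit was used, which does not mark strand. Tools listed in the submitters' processing notes are CASAVA 1.8, TopHat2 2.0.4, RSEM and edgeR, with the build GRCh38, and the tool behind each column is not stated there. The deposited count columns hold expected counts, scaled by the authors with 1 factor for each library. The values show this: divided by factors of 0.8768 to 1.1461, 93.2% to 94.1% of non-zero values at or below 1000 came out whole, with a tolerance of 0.02. The recovered expected counts were rounded. The table held 60660 genes with values, 13 lines without values were left out, and 28 symbols turned into dates were restored from the identifier. GENCODE 29 (GRCh38) gave positions and types for 57044 identifiers. Deposited fold changes and p-values were not used. Some genes and gene lists that the rules below name are not reported here. Reads of overlapping genes cannot be told apart where strand is unknown.

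The 6 libraries were fitted in R 4.3.3 with the robust quasi-likelihood test of edgeR 4.0.16, after TMM scaling and filterByExpr and with no covariate, and genes were called at a p under 0.05 after Benjamini-Hochberg adjustment over all genes tested. Values after ± are SEs for log2 fold changes (JMJD3 minus vector) and SDs for CPM. An SE is the size of the log2 fold change over the root of its F statistic. Log2 ratios within a replicate number used a prior count of 2.

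The members and gene lists were chosen with earlier results of these data known. The named genes were KDM6B; of each list up to 3 members with the largest absolute log2 fold change among those called, with no overlap between libraries and at least 5 CPM in the higher group; and the 8 largest rises and falls among protein-coding genes in no list with at least 20 CPM. Others named were chosen after their values were seen, as were the counts of genes near 0 and the levels of expression. Alternatives were a replicate block, 3 other scalings, DESeq2 1.42.0, other filters, the deposited columns unscaled, each library left out, and replicates 1 and 2 alone or summed. The 7 list members with no count in vector cells changed no list median when set at their bound.

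Deviations from the group means, compared over 14322 genes, correlated at 0.199, 0.238 and 0.553 between libraries of the same number, each over 0.1, so the numbers were treated as pairing the libraries. Replicates 1 and 2 correlated as well across numbers (0.203 and 0.255), and replicate 3 with neither (-0.312 to -0.383). These values therefore set replicate 3 apart but do not show which libraries of replicates 1 and 2 belong together. The block comes from these values and not from the labels.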

Additional observations from a re-analysis of the deposited data

How the results depend on the processing

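Alternatives to the scaling, filter, tool and libraries were computed for the counts of called genes, KDM6B, the genes named by rule and the counts per list. The counts of genes higher and genes lower in JMJD3 cells were 5215 and 5274 in the fit with the replicate block, against 3786 and 3421 without it. Library-size scaling gave 2202 lower beside the shift of the median, and replicates 1 and 2 summed into 1 library gave 1689, where fewer libraries were compared. Leaving out a library gave 2634 to 3555 genes lower and 3214 to 4071 higher. The summed fit called 2662 genes higher. The remaining alternatives called 3300 to 5086 genes higher and, library-size scaling apart, 2660 to 4930 lower. KDM6B kept its call in every setting, with adjusted p-values up to 0.00409. None of the genes named by rule changed sign in any setting run. Of the genes named by rule and given above, FZD2, TCIRG1, ME1, ATP6V1E2 and EIF4EBP1 lost their call in at least 1 setting, and the others of these kept theirs. Genes chosen after their values were seen were not rerun one by one. Genes near 0 in vector cells rest on few counts, so their folds are given as counts, bounds or intervals. The block changed no call of a gene named by rule, and list counts it moved are given beside the list. Leaving out 1 library moved some small list counts by over 1.5 times. Without JMJD3 replicate 1, 2 autophagy, 2 TGF-beta, Notch and Wnt and 5 fatty acid genes were lower, and 3 circadian genes higher and 3 lower. Without JMJD3 replicate 2, 2 autophagy, 2 TGF-beta, 5 Rab and 2 heme genes were lower and 3 circadian genes higher. Without JMJD3 replicate 3, 3 circadian genes were lower. Without vector replicate 1, 1 semaphorin, 3 TGF-beta, 4 Rab, 2 heme and 3 circadian genes were lower. Without vector replicate 2, those counts were 1, 3, 4, 1 and 3. Purinergic genes lower were 2 without JMJD3 replicate 1 or 3 or vector replicate 1 or 2, and tetraspanins lower 1 without JMJD3 replicate 1 or vector replicate 2. Without vector replicate 3, 8 lamina, 2 translation, 2 nuclear pore, 2 TCA cycle and 1 polymerase gene were higher, and 2 TNF superfamily, 2 cytokine and 2 V-ATPase genes lower. V-ATPase genes lower were 0 without JMJD3 replicate 2 or vector replicate 2. In the pentose phosphate list 0 to 3 were lower across these fits.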

Other observations

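Further members near 0 in vector cells belonged to several programs, at low levels in JMJD3 cells. The mitochondrial and peroxisomal fatty acid enzymes ECI2 and ACAA2 had 29, 39 and 33 and 29, 34 and 51 counts in the JMJD3 libraries, against 0 in each and 0, 1 and 0 in the vector libraries. ECI2 was at least 29.6-fold higher against a floor of 3 counts over the group, and the ratio of ACAA2 was 100 (95% counting interval 17.6 to 3993.6). BLVRA, which reduces biliverdin, had 60 summed counts in JMJD3 and 2 in vector cells, a ratio of 26.4 (6.99 to 223). The Notch ligand DLL1 had 73 and 1 (64.2, 11.2 to 2569.6), and the transporter SLC2A6 had 51 and 0, at least 14.9-fold higher. The reverse was seen for MSRB3, a methionine sulfoxide reductase, with 1 summed count in JMJD3 and 192 in vector cells, and for B3GNT7, a glycan-extending enzyme, with 2 and 93. What gave rise to these near-absent levels was not tested.

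By gene type, lincRNAs showed 20% of 435 tested genes called higher and 12.4% lower in JMJD3 cells, and protein-coding genes 27.9% and 26.1% of 11952. Processed pseudogenes, whose reads can be shared with their parent genes, had 6.90% of 290 called higher and 13.4% lower, with a median log2 fold change of -0.16.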
